A study of Homo sapiens with 6 samples.

Results

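Epithelial-mesenchymal transition (EMT) genes were examined in RNA-seq libraries of 786-O cells after knockdown of NFE2L3. The group holds 10 genes taken by name from the 56303 genes of the count table. They are the EMT transcription factors SNAI1, SNAI2, TWIST1, TWIST2, ZEB1 and ZEB2, the cadherins CDH1 and CDH2, the intermediate filament gene VIM and the matrix gene FN1. 786-O is an established human clear cell renal cell carcinoma (ccRCC) line without functional VHL. There were 3 libraries from cells given a control siRNA (siControl, genotype label WT, treatment label 0 h) and 3 from cells given an siRNA against NFE2L3 (siNFE2L3, treatment label 48 h). The effect of the siRNA cannot be told apart from that of the labelled time. Every library comes from the same line, and nothing in the labels says that the 3 libraries of a group are separate cultures, so p-values cover no more than the spread among these libraries, and that may be technical. In siNFE2L3 replicates 2 and 3 the genotype label names NFE2L4 and NFE2L5, while the title and source name give NFE2L3, which was followed here. The labels do not name which siRNA against NFE2L3 was used.

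In EMT, epithelial cells lose cell-cell junctions and gain motility. Snail (SNAI1), Slug (SNAI2), ZEB1 and ZEB2 are zinc finger proteins and TWIST1 and TWIST2 basic helix-loop-helix proteins that bind E-box sequences, and Snail, Slug and ZEB proteins repress the E-cadherin gene CDH1. N-cadherin (CDH2), vimentin (VIM) and fibronectin (FN1) are commonly used as mesenchymal markers. In the kidney these labels hold less strictly, since proximal tubule epithelium carries N-cadherin and ccRCC cells commonly contain vimentin.

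Total counts were between 51828446 and 57391929 per library. NFE2L3 had 6171, 6508 and 6403 reads in siControl replicates 1 to 3 and 1087, 1075 and 1068 reads in the siNFE2L3 libraries, a log2 fold change of -2.54 ± 0.0482 (SE, edgeR adjusted p = 3.98e-22). Of 8 renal carcinoma markers, 6 were above 1 RPKM (reads scaled to exon length and library size), among them PAX8, PAX2, LHX1, EPAS1 and VEGFA. Of 7 tested, 1 was lower (14.3%, beside 14.0% of all tested genes) and 2 were higher (28.6%, beside 12.7%). PAX8 was at a log2 fold change of -0.15 (edgeR adjusted p = 0.00626), EPAS1 at 0.13 (adjusted p = 0.0155) and VEGFA at 0.14 (adjusted p = 0.00525). CA9, a hypoxia target often used to mark ccRCC, had 0 to 6 reads, and NDUFA4L2 had 22 to 52. No marker of fibroblasts (8 genes), endothelial cells (6 genes) or leukocytes (7 genes) was above 1 RPKM. The summed fibroblast level was 1.20 to 1.23 RPKM in control and 0.993 to 1.24 RPKM in siNFE2L3 libraries. The summed endothelial level was 0.0831 to 0.192 and 0.0968 to 0.118 RPKM, with CDH5 at 0 reads, and the summed leukocyte level 0.514 to 0.661 and 0.395 to 1.14 RPKM. Of 3 tested leukocyte markers, CSF1R, a macrophage receptor, was higher, with 84, 70 and 63 reads in control and 114, 124 and 85 in siNFE2L3 libraries (log2 fold change 0.59, edgeR adjusted p = 0.0181, not under 0.05 in 5 of 16 alternatives, at most 0.0953). PTPRC, the pan-leukocyte marker, had 2 to 20 reads. CSF1R reached at most 0.428 RPKM in any library, and its part in the results was not tested.

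In both groups FN1 and VIM were abundant, CDH2, SNAI2, ZEB1 and ZEB2 were at intermediate levels, SNAI1 was low, CDH1 had 12 to 32 reads per library and TWIST1 and TWIST2 had 0 to 2. In bulk RNA, fewer cells expressing a gene and less RNA per cell cannot be told apart. After NFE2L3 knockdown, SNAI2 and CDH2 fell, ZEB1 and ZEB2 rose, and the other 4 tested members did not pass the test. Of the 10 members, 8 were tested, since TWIST1 and TWIST2 did not reach the filter on low counts. The 2 that fell stand beside 14.0% of 19916 tested genes that were lower at a Benjamini-Hochberg adjusted p under 0.05, and the 2 that rose beside 12.7% that were higher. For 6 of the 8 tested members the values of siControl and siNFE2L3 libraries were fully separated. SNAI1, SNAI2, CDH2 and VIM lay below the controls, as did 20.4% of all tested genes, and ZEB1 and ZEB2 above, as did 19.1%. Leaving out siControl replicate 3 added CDH1 to the members that fell, and leaving out siNFE2L3 replicate 3 added VIM. No member changed by a factor of 2 or more at a p under 0.05, which 1.10% of tested genes did.

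By mean RPKM the order was FN1, VIM, CDH2, SNAI2, ZEB1, ZEB2, SNAI1 and CDH1, followed by both TWIST genes. The RPKM here divides by the length of all annotated exons of a gene, 17315 bases for FN1 and 23707 bases for ZEB2, so genes with many annotated exons appear lower than their main transcript would. Neighbours in this order kept their order in all 6 libraries from FN1 to CDH1, with the exception of CDH2 and SNAI2. The ratio of CDH2 to SNAI2 RPKM was 0.944 to 1.07 in control libraries, where their levels did not differ beyond the spread, and 1.07 to 1.10 in siNFE2L3 libraries. FN1 exceeded VIM 4.33- to 4.43-fold in control and 4.47- to 4.96-fold in siNFE2L3 libraries. ZEB1 exceeded ZEB2 1.60- to 1.74-fold and 1.72- to 1.95-fold, respectively. The gap between SNAI2 and ZEB1, which moved in opposite directions, was 3.74- to 4.34-fold in control and 2.24- to 2.40-fold in siNFE2L3 libraries. VIM exceeded CDH2 4.16- to 4.22-fold in control and 4.93- to 5.37-fold in siNFE2L3 libraries.

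**Figure D1:**
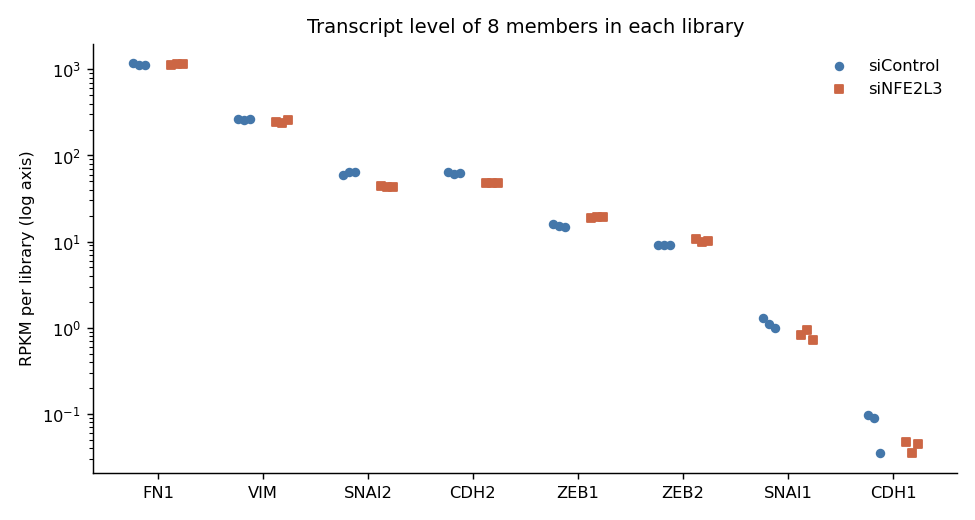
RPKM of 8 members (y axis, log scale) in each of 3 siControl libraries (blue circles) and 3 siNFE2L3 libraries (orange squares). Control means run from 1147 RPKM for FN1 to 0.0741 RPKM for CDH1. TWIST1 and TWIST2, with at most 2 reads in any library, cannot be drawn on a log axis.

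Of the Snail family, SNAI2 was by far the more abundant member and fell after NFE2L3 knockdown. SNAI2, which encodes Slug, is a minus-strand gene of chromosome 8, positions 48917690 to 48921740 (GRCh38, as for all positions here). It had 7144, 8536 and 8080 reads in siControl replicates 1 to 3 and 5678, 5587 and 5091 reads in the siNFE2L3 libraries. Scaled to library size as CPM, these were 134.7, 147.6 and 145.5 against 101.6, 99.4 and 99.1 CPM, so every knockdown library lay well below the lowest control. The siNFE2L3 mean was 70.1% of control. Its edgeR estimate was a log2 fold change of -0.51 ± 0.0427 (SE, edgeR adjusted p = 2.02e-09), the smallest adjusted p among the members.

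SNAI1, which encodes Snail, lies on chromosome 20 from 49982999 to 49988886 on the plus strand. It had 116, 106 and 92 reads in siControl replicates 1 to 3 and 78, 88 and 63 in the siNFE2L3 libraries, or 1.89 ± 0.270 against 1.40 ± 0.170 CPM (SD, n = 3 each). The knockdown libraries lay below all controls, but the log2 fold change of -0.43 (standard error 0.178) did not pass (adjusted p = 0.0756 from edgeR). Its 95% interval, which like those of the other members is not adjusted for the number of genes, ran from -0.80 to -0.07.

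The level of SNAI2 was 55.7-fold that of SNAI1 in control cells and 52.9-fold in knockdown cells, per exon length. The within-library log2 ratio of both genes was 5.80 ± 0.266 in control and 5.72 ± 0.173 in siNFE2L3 libraries (SD, n = 3 each). This difference of -0.08 was within the spread between libraries (two-sided exact permutation test, p = 0.8, adjusted p = 0.8 over 4 member pairs). An exact permutation test of 3 libraries against 3 cannot go below p = 0.1. SNAI3, the third member of the family, had 1 to 10 reads per library and was not tested.

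TWIST1 and TWIST2 were not detectable at this depth. TWIST1, a gene of chromosome 7 from 19020991 to 19117672, had 2 reads in siControl replicate 3 and 0 in the other 5 libraries. TWIST2, on chromosome 2 from 238848032 to 238910543, had 2 reads in siControl replicate 2 and 0 in the other 5. With reads taken as independent, a count of 0 allows up to 3 reads, which is 0.0519 to 0.0584 CPM in these libraries. This limit covers counting error only and would be higher if low counts rest on fewer fragments than reads. No fold change is given for either gene. The antisense gene AC003986.6, which shares 141 exon bases with TWIST1, had 0 reads in all 6 libraries.

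Both ZEB genes rose after NFE2L3 knockdown, ZEB1 by more than ZEB2 in the fitted estimates. ZEB1 lies on chromosome 10 from 31318495 to 31529814 on the plus strand. It had 7240, 7644 and 7065 reads in siControl replicates 1 to 3 and 8971, 9462 and 8608 in the siNFE2L3 libraries. In CPM these were 136.5, 132.2 and 127.2 against 160.5, 168.4 and 167.6, with a clear gap between the groups. The siNFE2L3 mean was 125.4% of control, a log2 fold change of 0.33 ± 0.0411 (SE, edgeR adjusted p = 1.26e-06).

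ZEB2 lies on chromosome 2 from 144384081 to 144524583 on the minus strand. Its reads were 11431, 12545 and 12091 in the controls and 14317, 13280 and 12475 in the siNFE2L3 libraries. The control libraries were close together at 215.5, 217.0 and 217.8 CPM, and the siNFE2L3 libraries spread from 236.3 to 256.2 CPM above them. The siNFE2L3 mean was 113.1% of control, a log2 fold change of 0.18 ± 0.0399 (SE, edgeR adjusted p = 0.00150).

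The log2 ratio of ZEB1 to ZEB2 was 0.74 ± 0.058 in control and 0.89 ± 0.096 in siNFE2L3 libraries (SD, n = 3 each). For the difference of 0.15 the two-sided exact permutation test gave p = 0.2 (adjusted p = 0.4 over 4 pairs). In this ratio siNFE2L3 replicate 1 fell among the controls. With 3 libraries against 3, the exact permutation test cannot go below p = 0.1, so it cannot decide whether the ratio changed. Antisense genes share exon sequence with both loci, 366 bases for ZEB1-AS1 and 1250 bases for ZEB2-AS1. ZEB1-AS1 was at 4.21 ± 0.457 CPM in control and 3.69 ± 0.230 CPM in siNFE2L3 libraries (SD, n = 3 each). ZEB2-AS1 was at 2.51 ± 0.219 CPM in control libraries, with a log2 fold change of -0.0063 (edgeR adjusted p = 0.981). Both were far below the ZEB transcripts. ZEB2_AS1_1 and ZEB2_AS1_4 share 4 and 19 bases with ZEB2 and had at most 3 reads in any library.

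Promoter sequences were available from RefSeq (GRCh38.p14) for 6 of the 10 members, TWIST2, ZEB1, ZEB2, CDH2, VIM and FN1, as windows of 250 bases before to 50 bases after an annotated start. SNAI1, SNAI2, TWIST1 and CDH1 had no entry. Windows of the 3 entries whose transcripts passed the test are shown, because E-boxes are the sequences that Snail, ZEB and TWIST proteins bind. Both strands were searched for CANNTG (any E-box), for CAGGTG (the E-box form bound by Snail and ZEB proteins, which is a special case of it), for TGACNNNGC (the core element of CNC and small MAF proteins, the family of NFE2L3) and for GTCACNCT (a motif the study gives for NFE2L3). Capitals mark every match of these motifs. ZEB1 has 7 annotated starts, and the window with the most matches of CAGGTG is shown (chr10:31318966-31319265, plus strand). For ZEB2 it is chr2:144520070-144520369, minus strand. For CDH2 the window of the first annotated start is shown (chr18:28177081-28177380, minus strand).
ZEB1: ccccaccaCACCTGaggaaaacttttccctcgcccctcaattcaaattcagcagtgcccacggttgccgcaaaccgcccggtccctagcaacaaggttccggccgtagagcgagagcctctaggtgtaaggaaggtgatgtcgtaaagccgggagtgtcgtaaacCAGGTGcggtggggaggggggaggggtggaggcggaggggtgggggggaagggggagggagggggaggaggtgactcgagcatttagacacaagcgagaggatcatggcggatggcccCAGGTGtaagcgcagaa
ZEB2: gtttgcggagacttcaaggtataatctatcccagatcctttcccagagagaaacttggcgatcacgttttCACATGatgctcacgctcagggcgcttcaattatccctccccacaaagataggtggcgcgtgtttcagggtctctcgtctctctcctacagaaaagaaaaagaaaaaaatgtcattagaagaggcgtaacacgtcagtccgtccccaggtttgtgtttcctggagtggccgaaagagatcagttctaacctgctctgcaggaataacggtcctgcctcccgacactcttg
CDH2: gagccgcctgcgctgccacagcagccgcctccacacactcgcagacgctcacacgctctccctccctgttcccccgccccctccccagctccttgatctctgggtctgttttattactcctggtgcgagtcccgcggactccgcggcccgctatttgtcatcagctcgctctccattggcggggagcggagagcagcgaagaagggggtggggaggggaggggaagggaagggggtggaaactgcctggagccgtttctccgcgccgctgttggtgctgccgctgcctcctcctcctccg
The ZEB1 window holds 3 matches of CAGGTG or its reverse complement CACCTG, starting at -242, -85 and 34 from the annotated start. The ZEB2 window holds 1 other E-box, CACATG at -180. The CDH2 window shown holds no match of any of these motifs, and neither do the windows of TWIST2, VIM and FN1. Of 35116 promoter windows of the same length, 68.7% hold an E-box, 20.6% hold CAGGTG, 13.3% hold TGACNNNGC and 3.39% hold GTCACNCT. Among the members, TGACNNNGC was matched in 1 of the other ZEB1 windows (TGACCGTGC, at 25) and GTCACNCT in none of the windows. The ZEB1 window was chosen as the one with most matches of 7, so its count cannot be read against these shares of single windows. Of the other ZEB1 windows, 1 holds CAGGTG at -57 with CATCTG at -234, 1 holds CAGCTG at -14 and 1 holds CATGTG at -40 and -29 with CAGCTG at 2. In all, 5 of the 7 ZEB1 windows hold no CAGGTG. The second CDH2 window holds the E-box CAGATG at -97. A match describes letters of the window and is not a measured binding site.

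Of the cadherins, CDH2 fell and CDH1 was barely expressed in both groups. CDH2 (N-cadherin) lies on chromosome 18 from 27950966 to 28177446 on the minus strand. It had 16650, 17475 and 17257 reads in siControl replicates 1 to 3 and 13153, 13282 and 12157 in the siNFE2L3 libraries. In CPM the control libraries were at 313.9, 302.2 and 310.8, and the siNFE2L3 libraries were tightly grouped at 235.4, 236.3 and 236.6. The siNFE2L3 mean was 76.4% of control, a log2 fold change of -0.39 ± 0.0377 (SE, edgeR adjusted p = 2.35e-08). The gene AC015933.2 of the opposite strand shares 136 of its 440 exon bases with CDH2. It was at 8.81 ± 1.10 CPM in control and 6.72 ± 0.107 CPM in siNFE2L3 libraries (SD, n = 3 each) and had a log2 fold change of -0.39 as well (adjusted p = 0.00262 from edgeR).

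CDH1 (E-cadherin), on chromosome 16 from 68737225 to 68835548, had 32, 32 and 12 reads in siControl replicates 1 to 3 and 16, 12 and 14 in the siNFE2L3 libraries. All 6 counts are even, as were most low counts of the table, and may rest on fewer fragments than reads. The groups overlapped, since siControl replicate 3 lay at the level of the knockdown libraries. The fitted log2 fold change of -0.82 (standard error 0.403) did not pass (adjusted p = 0.140 from edgeR), and its 95% interval ran from -1.66 to 0.0068. Without siControl replicate 3 it was -1.16 (adjusted p = 0.0370 from edgeR), so this library decides the call. The antisense gene RP11-354M1.2 shares 347 exon bases with CDH1 and had 3 to 12 reads.

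Per exon length, CDH2 exceeded CDH1 904.1-fold in control and 1113-fold in siNFE2L3 libraries. The log2 ratio was 9.82 ± 0.806 in control and 10.12 ± 0.221 in siNFE2L3 libraries (SD, n = 3 each), and the difference of 0.30 was within the spread (two-sided exact permutation test, p = 0.6, adjusted p = 0.8 over 4 pairs). It was 0.77 without siControl replicate 3, 0.05 without siControl replicate 1, 0.09 without siControl replicate 2 and 0.17 without siNFE2L3 replicate 2, so its size rests on single libraries.

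VIM and FN1, the most abundant members, did not pass the test in either direction. VIM lies on chromosome 10 from 17228259 to 17237593 on the plus strand. It had 72249, 76859 and 75258 reads in siControl replicates 1 to 3 and 69661, 68288 and 68007 in the siNFE2L3 libraries. In CPM the controls were at 1362, 1329 and 1355 and the siNFE2L3 libraries at 1247, 1215 and 1324, so that all 3 lay below the controls, siNFE2L3 replicate 3 by a narrow margin. The siNFE2L3 mean was 93.5% of control, with a log2 fold change of -0.10 (standard error 0.0387, 95% interval -0.18 to -0.02, adjusted p = 0.0685 from edgeR). The call turned with the tool and the scaling, and the adjusted p was 0.0335 with DESeq2, 0.0357 with limma-voom, 0.0286 with library totals alone, 0.0283 without a filter and 0.0369 without siNFE2L3 replicate 3.

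VIM shares exon sequence with a pair of genes of the opposite strand. VIM-AS1 shares 641 of its 1992 exon bases and RP11-124N14.3 shares 619 of its 706. They were at 291.3 ± 12.9 and 723.9 ± 14.5 CPM in control libraries and at 266.8 ± 17.8 and 683.2 ± 30.2 CPM in siNFE2L3 libraries (SD, n = 3 each). VIM-AS1 was lower by a log2 fold change of -0.13 (adjusted p = 0.0425 from edgeR, with groups that overlapped) and RP11-124N14.3 was at -0.08 (adjusted p = 0.127). The sources used here do not give the strand setting of the counting, so the division of reads among these 3 genes is uncertain and its part in the value of VIM was not tested.

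FN1, on chromosome 2 from 215360440 to 215436172 on the minus strand, had the highest count of all genes in each of the 6 libraries. It took 1.97% to 2.03% of all counts per library. At this depth the 95% Wilson interval of siControl replicate 1 was 2.02% to 2.03%, which takes reads as independent and covers counting error only. Per exon length it ranked between 25 and 28. Its reads were 1075463, 1134027 and 1093022 in the controls and 1096190, 1137044 and 1019814 in the siNFE2L3 libraries. In CPM these were 19857 ± 362.5 and 19899 ± 310.4 (SD, n = 3 each), and the groups overlapped. Its edgeR estimate was a log2 fold change of 0.0030 ± 0.0343 (SE, edgeR adjusted p = 0.963). Its 95% interval, -0.07 to 0.07, corresponds to 95.4% to 105.3% of the control level. No gene shares exon sequence with FN1 in the table.

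The log2 ratio of FN1 to VIM was 2.13 ± 0.018 in control and 2.23 ± 0.076 in siNFE2L3 libraries (SD, n = 3 each). It was higher in all 3 knockdown libraries by 0.10 on average (exact permutation test, two-sided p = 0.1, which is the lowest value possible with 3 against 3, adjusted p = 0.4 over 4 pairs), and by 0.06 without siNFE2L3 replicate 2.

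**Figure D2:**
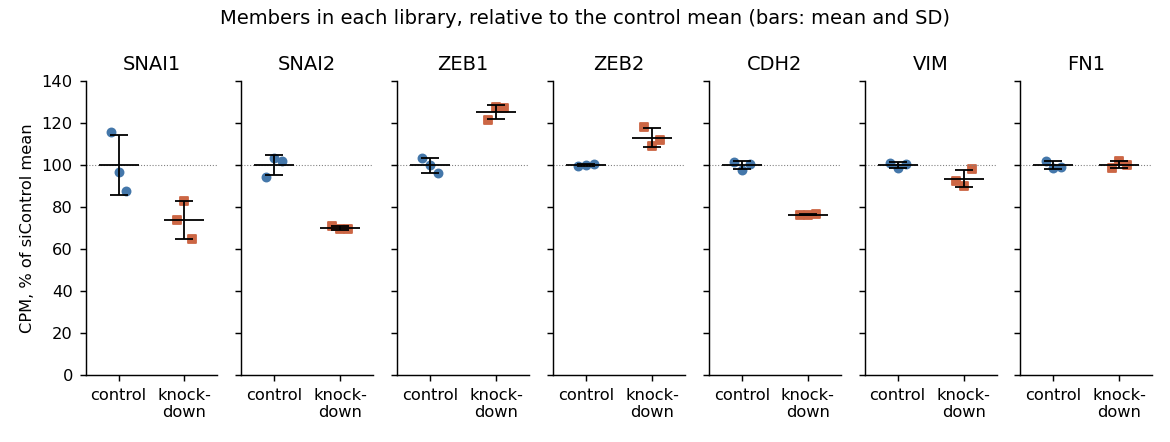
CPM of 7 members in each library as a percentage of the siControl mean (y axis), with siControl libraries as blue circles, siNFE2L3 libraries as orange squares and black bars for the mean and SD (n = 3 each). SNAI2 and CDH2 lie at means of 70.1% and 76.4%, ZEB1 and ZEB2 at 125.4% and 113.1%, and the FN1 groups lie on each other.

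**Figure D3:**
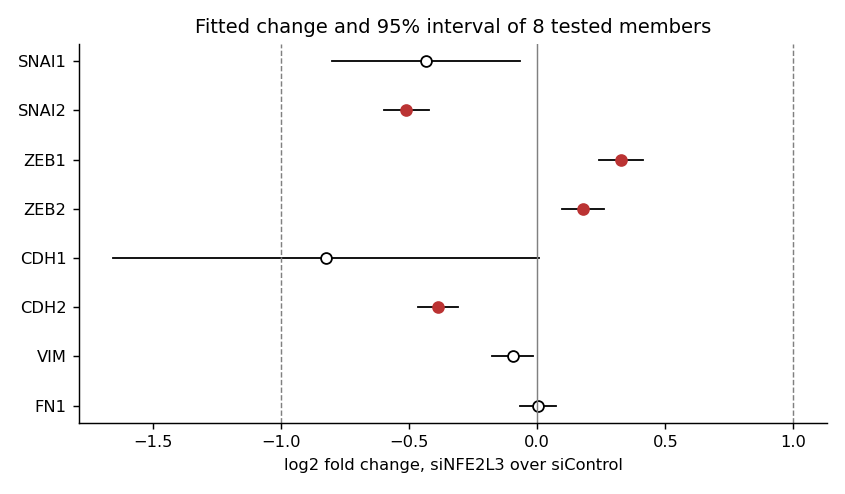
Log2 fold change of 8 tested members (x axis, siNFE2L3 over siControl, 3 libraries each), with edgeR estimates as points and unadjusted 95% intervals as bars. Red filling marks edgeR adjusted p-values under 0.05, and dashed lines mark a change by a factor of 2. SNAI2 and CDH2 lie left of 0, ZEB1 and ZEB2 right of it, and CDH1 has the widest interval.

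Related genes moved in both directions. Their counts and medians stand beside 14.0% lower and 12.7% higher of all tested genes and a median log2 fold change of -0.00066. Of 14 other EMT-inducing factors, 11 were tested, 1 rose and 1 fell (9.09% each), with a median of -0.04. TCF3, an E protein that partners with TWIST and other helix-loop-helix factors, rose from 2521, 3222 and 2669 reads to 4143, 3660 and 4000 (log2 fold change 0.52, adjusted p = 4.50e-07 from edgeR). SOX4 fell from 1941, 2328 and 1970 to 1478, 1629 and 1486 reads (-0.41, adjusted p = 4.56e-06). Without siNFE2L3 replicate 3, 2 genes of this list were lower. PRRX1 had 2 to 8 reads and GSC had 0.

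Of 12 epithelial-state factors, 6 were tested, 2 fell (33.3%, beside 14.0% of all tested genes) and none rose, with a median of -0.13. KLF4, a zinc finger factor of epithelia, was at -0.31 (adjusted p = 0.00123 from edgeR) and ELF3, an epithelial ETS factor, at -0.23 (adjusted p = 0.00577). Without siNFE2L3 replicate 3, ELF3 no longer passed (adjusted p = 0.0650 from edgeR), leaving 1 gene lower. GRHL2, OVOL1 and ESRP1, which hold cells in an epithelial state, had at most 4 reads in any library and are among the 6 that were not tested. The 4 tested factors that did not pass had more, with 137 to 202 reads for GRHL1 and 452 to 559 for OVOL2. ESRP2 had 24 to 50 and KLF5 377 to 499.

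The corepressors and stability regulators of Snail and ZEB were all tested (15 genes), with 3 higher and 3 lower, beside 12.7% and 14.0% of all tested genes, and a median of 0.03. HDAC1 and HDAC2, the deacetylases recruited by Snail and ZEB, were at 0.20 (adjusted p = 6.96e-04 from edgeR) and 0.21 (adjusted p = 1.22e-04). The corepressor genes CTBP1 (0.19, adjusted p = 0.0113 from edgeR) and CTBP2 (-0.12, adjusted p = 0.0278) moved in opposite directions. Of 16 alternatives, CTBP1 passed in 13 and CTBP2 in 10. LIMD1, of the Ajuba family of Snail partners, was at -0.26 (adjusted p = 8.19e-04), and FBXL5, an F-box protein, at -0.15 (adjusted p = 0.0111). GSK3B, the kinase that marks Snail for degradation, did not pass (0.10, adjusted p = 0.190 from edgeR). Without siNFE2L3 replicate 1, 1 gene of this list was lower, and FBXL5 did not pass (adjusted p = 0.0692 from edgeR).

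Of 19 other cadherins and catenins, 14 were tested, 5 fell (35.7%, beside 14.0% of all tested genes) and 2 rose (14.3%, beside 12.7%), with a median of -0.11. VCL, which encodes the actin linker vinculin, fell from 27.1 to 22.8 RPKM (log2 fold change -0.25, adjusted p = 2.01e-05 from edgeR). The cadherins CDH4 (-0.29) and CDH6 (-0.37), the latter expressed in kidney tubules, were lower and CDH24 (0.36) was higher, each at 2.27 RPKM or less in either group. Of the catenins, JUP, which encodes plakoglobin, had 78, 125 and 104 reads in control and 62, 61 and 71 in siNFE2L3 libraries (-0.63, adjusted p = 0.0165 from edgeR). JUP did not pass without siControl replicate 2, siNFE2L3 replicate 1 or siNFE2L3 replicate 2 (adjusted p up to 0.102). CTNND1, which encodes p120-catenin, fell from 17.7 to 15.9 RPKM (-0.15, adjusted p = 0.00775 from edgeR), and did not pass without siControl replicate 3 (adjusted p = 0.0606). CTNNB1, which encodes β-catenin, did not pass (-0.06, adjusted p = 0.273 from edgeR). Without siNFE2L3 replicate 2, 3 genes of this list were lower and CDH6 did not pass (adjusted p = 0.0630 from edgeR), and without siControl replicate 3 or siNFE2L3 replicate 3, 1 was higher.

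Of 29 epithelial junction and keratin genes, 26 were tested, 8 fell (30.8%, beside 14.0% of all tested genes) and 4 rose (15.4%, beside 12.7%), with a median of -0.03. The keratins of simple epithelia KRT7 (-0.62, adjusted p = 7.73e-09 from edgeR), KRT8 (-0.32, adjusted p = 1.59e-06) and KRT18 (-0.25) fell, while KRT19 did not pass (0.11, adjusted p = 0.0661). KRT7 had 1468, 1709 and 1593 reads in control and 1066, 1049 and 936 in siNFE2L3 libraries. PERP, a desmosomal membrane protein, rose by 0.53 on the log2 scale (adjusted p = 3.52e-08 from edgeR). So did OCLN (0.78, adjusted p = 0.00476 from edgeR), EPCAM (0.28, adjusted p = 0.0255) and DSG2 (0.11, adjusted p = 0.0405). OCLN had 46 to 83 reads in control and 95 to 118 in siNFE2L3 libraries. Of 16 alternatives, OCLN passed in 16, EPCAM in 10 and DSG2 in 8. KRT8 was at 69.8 RPKM in control cells, beside 0.0741 RPKM for CDH1. KRT8 and KRT18 have many processed pseudogenes, so their counts are less certain. Without siNFE2L3 replicate 1, replicate 2 or replicate 3, 2 genes of this list were higher.

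Of 32 other mesenchymal and matrix genes, 28 were tested, 6 fell (21.4%, beside 14.0% of all tested genes) and 7 rose (25.0%, beside 12.7%), with a median of 0.06. The actin-binding caldesmon gene CALD1 (log2 fold change -0.31) and the matrix crosslinking enzyme gene LOXL2 (-0.29) fell, and the membrane protease gene MMP14 rose from 93.3 to 115.1 RPKM (0.30, adjusted p = 1.17e-06 from edgeR). ITGA5, a subunit of the fibronectin receptor, did not pass (0.05, adjusted p = 0.389 from edgeR), and its partner ITGB1 was at 0.13 (adjusted p = 0.00837, and 0.0603 without siNFE2L3 replicate 3). The collagen genes COL1A2 and COL3A1 had at most 4 reads in any library. COL1A1 had 31 to 52 reads and COL5A1 52 to 100, and neither passed (adjusted p = 0.440 and 0.119 from edgeR).

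**Figure D4:**
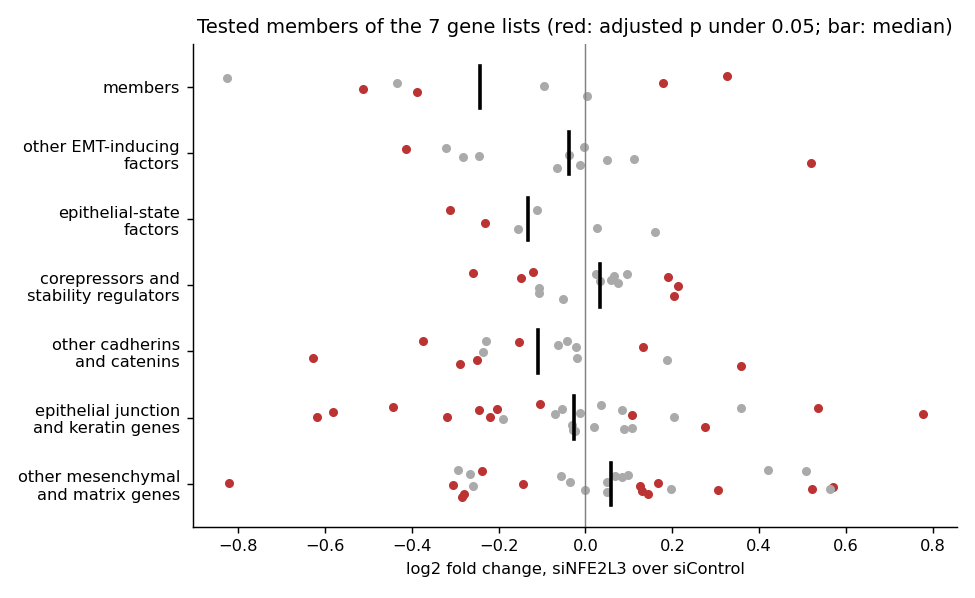
Log2 fold change (x axis, siNFE2L3 over siControl, 3 libraries each) of the tested genes of 7 lists, 1 point per gene, drawn in red where edgeR gave an adjusted p under 0.05, with black bars for medians. Vertical scatter within a list has no meaning. The 6 lists of related genes have medians between -0.13 and 0.06.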

How the data were processed

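RNA-seq of 786-O cells was analysed, 3 siControl against 3 siNFE2L3 libraries. The authors trimmed reads with Trimmomatic 0.36, collapsed them by molecular identifier, mapped them with STAR 2.5.3a to the Ensembl release 87 genome (GRCh38 coordinates) and counted exon reads with featureCounts (Subread 1.5.1). The strand setting was not stated in these sources. The deposited table holds raw counts. Even numbers made up 67.6% to 69.9% of counts between 0 and 30, so low counts may rest on fewer fragments.

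CPM and RPKM (both with TMM-scaled library sizes) and tests were computed here with R 4.3.3 and edgeR 4.0.16: filterByExpr (minimum count 10), TMM scaling and the quasi-likelihood test, with Benjamini-Hochberg adjustment over all 19916 tested genes. Standard errors follow from the fold change and F statistic. Ratios of member pairs used a pseudocount of 0.5 counts and needed group means of at least 10 counts, which the TWIST pair did not reach. Replicate libraries differed by more than sampling noise (chi-square per degree of freedom 4.03 to 7.67). Alternatives used DESeq2 1.42.0, limma 3.58.1, other scalings and filters, halved counts, a replicate block and leaving out each library. The procedure was tested on simulated data. The members and lists were chosen with earlier results of these data known. Named genes were the members, NFE2L3, genes sharing exon sequence with a member, markers above 1 RPKM and up to 4 genes per list with the smallest adjusted p under 0.05, some of which are not reported here. Outside that rule, CA9, NDUFA4L2, CDH5, CSF1R, PTPRC, SNAI3, PRRX1, GSC, GRHL2, OVOL1, ESRP1, GSK3B, CTNNB1, JUP, CTNND1, KRT18, KRT19, OCLN, EPCAM, DSG2, ITGA5, ITGB1, COL1A2 and COL3A1 were named after their values were seen. The same holds for GRHL1, OVOL2, ESRP2, KLF5, CTBP1, CTBP2, COL1A1 and COL5A1.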

Additional observations from a re-analysis of the deposited data

How the results depend on the processing

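SNAI2, CDH2, ZEB1, ZEB2 and NFE2L3 kept their direction and an adjusted p under 0.05 under all 10 alternative settings and without each library in turn. Their log2 fold changes ran from -0.55 to -0.49 for SNAI2, from -0.41 to -0.37 for CDH2, from 0.30 to 0.35 for ZEB1 and from 0.15 to 0.20 for ZEB2. SNAI1 did not pass under any of them. VIM passed with library totals alone (-0.11), without a filter (-0.10), with DESeq2 (-0.10) and with limma-voom (-0.10), and ran from -0.13 to -0.070 without single libraries. CDH1 ran from -1.16 to -0.58 without single libraries, and DESeq2 gave it no adjusted p. With halved counts CDH1 was below the filter and has no value. FN1 changed sign around 0 without passing, with library totals alone (-0.0089) and without a filter (-0.00096), and ran from -0.0092 to 0.018 without single libraries. Without single libraries the difference of log2 ratios ran from -0.23 to 0.029 for SNAI2 to SNAI1, from 0.11 to 0.20 for ZEB1 to ZEB2, from 0.05 to 0.77 for CDH2 to CDH1 and from 0.06 to 0.14 for FN1 to VIM. The exact tests of ratios cannot reach p under 0.05 in this design and say nothing about stability.

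No pairing of libraries by replicate number was seen. The correlations of same-numbered libraries were -0.015, -0.048 and -0.020, and 0 of 6 libraries correlated best with their own number. They were taken relative to means of 3 libraries, so they cannot show that the libraries were not prepared in pairs. With the numbers as a block, 2504 genes were lower and 2278 higher, against 2783 and 2537 without it, and the calls of the members did not change.

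The medians of the lists moved by more than the spread between libraries in these cases. Without a filter they were -0.27 for epithelial-state factors, -0.058 for cadherins and catenins and 0.020 for mesenchymal and matrix genes, and with DESeq2 -0.27, -0.054 and 0.024. With upper quartile scaling they were 0.054 for corepressors, -0.089 for cadherins and catenins and 0.079 for mesenchymal and matrix genes, and with library totals alone 0.022 for corepressors. Without single libraries they ran from -0.18 to -0.11 for epithelial-state factors, from 0.0015 to 0.047 for corepressors, from -0.19 to -0.038 for cadherins and catenins, from -0.055 to -0.0023 for epithelial junction and keratin genes and from 0.033 to 0.065 for mesenchymal and matrix genes. Over all tested genes the median was 0.0193 with upper quartile scaling and -0.0125 with library totals alone, against -0.00066 in the main fit. The list medians under these scalings include that shift of all genes. The cause of the other shifts was not tested beyond the change in genes tested that the filter brings.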
